A study of Homo sapiens with 5 samples.

Results

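WAC and NDRG1 are protein-coding genes whose RNA carried many SRSF9 peaks that were found only in cells without added ADAR2. Their members here are all rows of the deposited peak table that touch, by at least 1 nt, chromosome 10 from 28821 to 28913 kb (WAC) or chromosome 8 from 134249 to 134310 kb (NDRG1) on hg19. WAC held 64 peaks and NDRG1 held 33, together 97 of the 80514 peaks in the table. The pair was chosen by its number of peaks found only without ADAR2. The class counts, and every other comparison with against without ADAR2 below, are therefore descriptions and not evidence for a difference.

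The cells were HEK 293T, a human embryonic kidney line, and both conditions overexpressed SRSF9. The first condition had SRSF9 overexpression alone and the second had SRSF9 together with ADAR2 overexpression, with 2 eCLIP libraries each. In eCLIP the protein is precipitated with its fragmented RNA, and the RNA recovered from a membrane is sequenced. The labels name an antibody against SRSF9, while their protocol names beads coupled for MYC. The study also had 1 input RNA library from cells with both proteins, and an input of cells with SRSF9 alone was not used here. All values come from cells with raised SRSF9 and, in the second condition, raised ADAR2, and no library with the cells' own amounts of these proteins was analysed here.

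SRSF9 is a serine/arginine-rich RNA-binding protein that takes part in the choice of splice sites and binds both exons and introns of pre-mRNA. ADAR2 deaminates adenosine to inosine within double-stranded stretches of RNA, such as the hairpins that inverted repeats form in introns. By its title and design text, the study mapped SRSF9 binding in the presence or absence of ADAR2 to learn how SRSF9 holds back ADAR2 at its targets. WAC encodes a nuclear adaptor with a WW domain and a coiled coil that links RNA polymerase II to the ubiquitination of histone H2B. NDRG1 encodes a mostly cytoplasmic protein of the N-myc downstream-regulated family that is induced by hypoxia and other stresses and whose loss causes a demyelinating neuropathy.

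For every condition in which a peak was found, the table gives 2 log2 ratios, 1 per library, made by the authors against an unnamed denominator. The table has no read counts, so the depth behind a value is unknown and no interval on a single value is given. It has no strand either. In GENCODE release 29, WAC lies on the plus strand and NDRG1 on the minus strand of GRCh38. There 1 other gene overlapped WAC, the antisense gene WAC-AS1 over 251 nt, and no other gene overlapped NDRG1. Reads of WAC and WAC-AS1 cannot be told apart without strand. Exons, introns and untranslated regions of hg19 were not used here, so peaks are placed by their hg19 position and by their distance from the 5′ end of the gene interval. In GENCODE release 29 WAC spans 90620 nt and NDRG1 64852 nt, so a bound of an interval need not be an end of the gene. Below, the 5′ and 3′ ends are those of the interval.

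In WAC, peaks found only without ADAR2 made up 16 of 64, or 25% (95% Wilson interval 16 to 36.8, counting error over peaks only). In the whole table that class made up 5.92% of the peaks. A further 45 WAC peaks, 70.3% (58.2 to 80.1), were found only with ADAR2, and 3 were shared by both conditions. In NDRG1, 14 of 33 peaks, 42.4% (27.2 to 59.2), were found only without ADAR2 and 6 were shared. The other 13 NDRG1 peaks were found only with ADAR2, a class that made up 89.4% of the table. NDRG1 thus had 19 peaks with ADAR2 for 20 without, or 0.95 to 1, while WAC had 48 for 19, or 2.53 to 1. The ratio over the whole table was 8.84. In nucleotides covered, NDRG1 peaks spanned 826 nt without ADAR2 and 636 nt with it, and WAC peaks 838 nt and 1635 nt. These counts are not scaled by interval length, which was 92 kb in WAC and 61 kb in NDRG1. They therefore do not show in which condition the genes differed more.

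The rest of each chromosome had a lower share than the gene on it. Without WAC, chromosome 10 had 218 of 3146 peaks only without ADAR2, 6.93% (6.09 to 7.87). Without NDRG1, chromosome 8 had 120 of 2536, or 4.73% (3.97 to 5.63). Shared peaks made up 18.2% (8.61 to 34.4) of the NDRG1 peaks and 4.69% (1.61 to 12.9) of the WAC peaks, against 4.72% in the table. As a part of the peaks found without ADAR2, shared peaks were 15.8% in WAC and 30% in NDRG1, against 44.4% in the table. The condition has 1 peak set, so none of these counts has a spread between libraries.

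**Figure D1:**
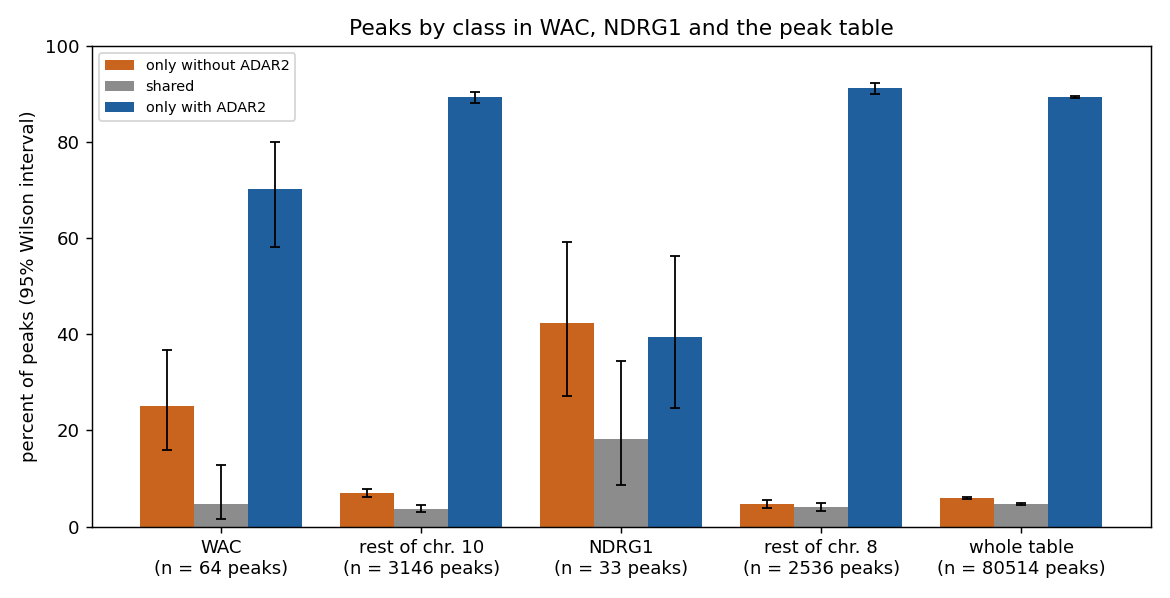
Percent of peaks in each class for WAC, NDRG1, the rest of their chromosomes and the whole table, with 95% Wilson intervals over peaks as error bars. Peaks only without ADAR2 stand at 25% in WAC and 42.4% in NDRG1, against 5.92% in the whole table.

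Few peaks lay beside either gene. Within 500 kb on either side of WAC there were 6 peaks, and on either side of NDRG1 there were 15. Of these, 0 were found only without ADAR2, and 1, beside NDRG1, was shared. At the left bound of WAC the nearest outer peak, found only with ADAR2 and with a mean ratio of 1.65, ended 8.3 kb away, and the first inner peak lay 0.4 kb inside with 0.86. On its right the last inner peak lay 12.2 kb inside (1.77) and the next outer peak 53.5 kb outside (1.42), both only with ADAR2. NDRG1 had peaks found only without ADAR2 0.6 kb inside each bound, with means of 0.38 and -0.59, and its nearest outer peaks lay 235.7 and 397.1 kb away.

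Along WAC, peaks grew sparser toward the 3′ end. Its interval has 92 kb, and the parts from 0 to 23 kb, 23 to 46 kb, 46 to 69 kb and 69 to 92 kb from the 5′ end held 23, 20, 14 and 7 peaks. Peaks only without ADAR2 followed the same order, with 6, 5, 4 and 1. The last 12.2 kb of the interval held no peak. Peaks of both exclusive classes were mixed along the gene. The longest run without a peak found only with ADAR2 was at chr10:28831616-28835310, from 10.7 to 14.3 kb, with 4 peaks only without ADAR2 and 1 shared peak in 3.7 kb. The longest runs of peaks only with ADAR2 had 6 peaks each, at chr10:28861344-28870053 and chr10:28879730-28895030.

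NDRG1 peaks were gathered in one part of the gene. Of its 33 peaks, 18 lay from 30.5 to 45.75 kb from the 5′ end of a 61 kb interval, among them 4 shared peaks, 8 only with ADAR2 and 6 only without it. The stretch at chr8:134266786-134279720 alone, 12.9 kb long and chosen as the 15 kb with most peaks, held 19. Outside the part from 30.5 to 45.75 kb, the 5′ part up to 15.25 kb had 6 peaks, the next part up to 30.5 kb had 5, and the 3′ part beyond 45.75 kb had 4, of which 3 were found only without ADAR2. The longest stretch between peaks was 9.3 kb, between the peaks at 4.1 and 13.5 kb from the 5′ end.

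**Figure D2:**
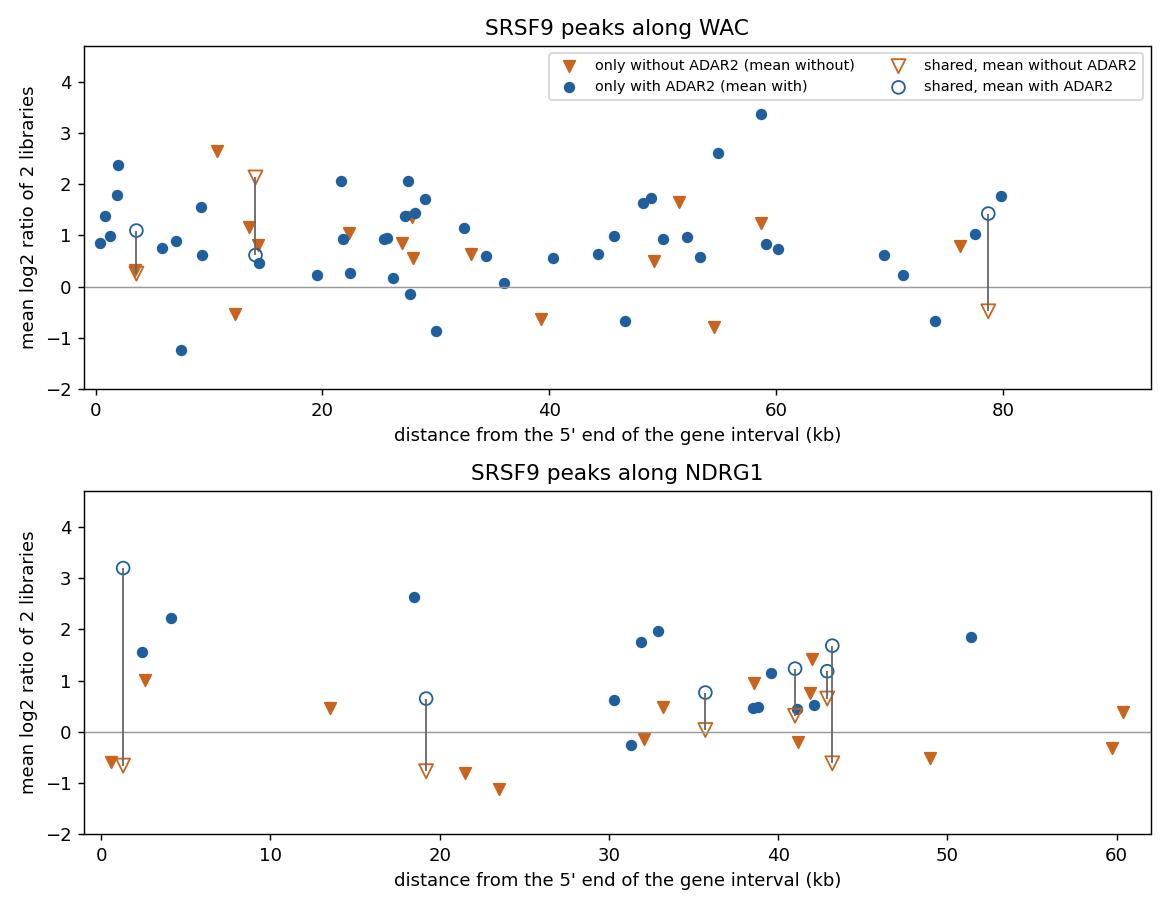
Mean log2 ratio of each peak against its distance from the 5′ end of the gene interval in kb, for WAC above and NDRG1 below. Filled marks are peaks of 1 condition and open marks joined by a line are shared peaks, of which NDRG1 has 4 between 30.5 and 45.75 kb and WAC has 3 at 3.6, 14.1 and 78.7 kb.

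Peak values differed between the genes in the condition without ADAR2. The 19 WAC peaks found there had a median log2 ratio of 0.98 (from -0.66 to 3.83) in the first SRSF9-only library and of 0.64 (-1.25 to 1.64) in the second. Over all 8565 peaks found without ADAR2 the medians were 1.07 and 0.24, so WAC lay near the table in the first library and above it in the second. The 20 NDRG1 peaks found without ADAR2 had medians of 0.02 (-0.93 to 1.66) and -0.11 (-1.72 to 1.18), below the table in both libraries. The median of their mean ratio was -0.05, and it was 0.02 by the first library alone, so its sign is not fixed by these data. The ranges of WAC and NDRG1 overlapped in every library, and peaks of 1 gene share their transcript, so the difference was not tested.

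With ADAR2 the order of the genes was the other way round. The 48 WAC peaks had medians of 0.86 (-1.12 to 3.24) and 0.80 (-1.64 to 3.52) in the first and second library, against 1.16 and 1.06 over all 75751 peaks found with ADAR2. The 19 NDRG1 peaks had 1.07 (-0.25 to 3.53) and 1.23 (-0.26 to 2.87). Here WAC lay below the table in both libraries, and NDRG1 lay below it in the first and above it in the second.

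The offset between the libraries of a condition was alike in both genes without ADAR2 and of opposite sign with it. Without ADAR2 the first library was the higher one in 16 of the 19 WAC peaks and in 19 of the 20 NDRG1 peaks, by medians of 0.60 and 0.46 (0.84 over the table). With ADAR2 the first library was higher in 29 of 48 WAC peaks, by a median of 0.15, and in 6 of 19 NDRG1 peaks, with a median difference of -0.21. Over the table that median was 0.05. Across peaks the libraries of a condition had a Pearson r of 0.78 in WAC and 0.81 in NDRG1 without ADAR2, and of 0.80 and 0.64 with it. These are descriptions over 19, 20, 48 and 19 peaks. The table holds only peaks whose libraries had the same sign in both, which bears on r.

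**Figure D3:**
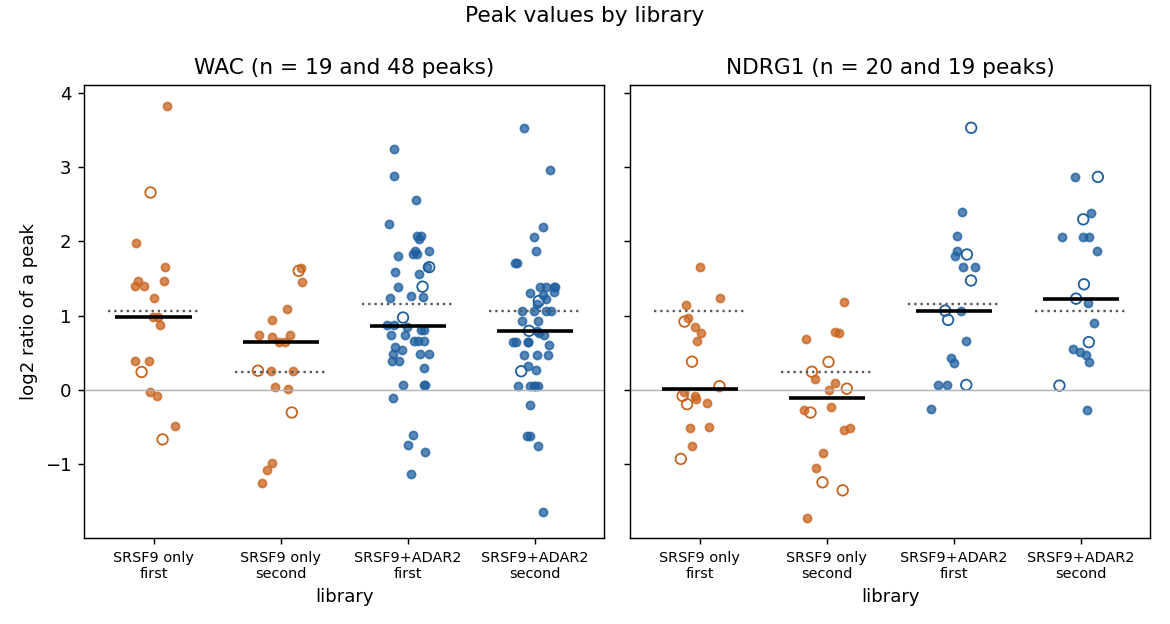
Log2 ratio of every peak in each library, for WAC on the left and NDRG1 on the right, with open circles for shared peaks, black bars for the gene's median and dotted lines for the median of that library over the whole table. NDRG1 medians without ADAR2 are 0.02 and -0.11, against 1.07 and 0.24 over the table.

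The strongest WAC peak without ADAR2 was at chr10:28831616-28831688, 10.7 kb from the 5′ end and 73 nt wide. It had ratios of 3.83 and 1.45 in the SRSF9-only libraries, and its mean of 2.64 ranked 19 among the 4763 peaks found only without ADAR2. Its height rested mainly on the first library. The next was at chr10:28872388-28872412, at 51.4 kb, with 1.66 and 1.64, where the libraries were almost equal. The peak at chr10:28848849-28848911 had 1.98 and 0.74, and that at chr10:28879650-28879689 had 1.40 and 1.09. The fifth, chr10:28834481-28834562, had 1.40 and 0.95 and was, with 82 nt, also the widest of its class in WAC. Of the 16 WAC peaks only without ADAR2, 3 exceeded a log2 ratio of 1 in both libraries, 18.8% against 10.2% of that class in the table. The lowest, chr10:28875524-28875564, had -0.48 and -1.08.

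Among WAC peaks found only with ADAR2, the highest was chr10:28879730-28879769, 58.7 kb from the 5′ end, with 3.24 and 3.52. It ranked 332 of the 71949 peaks of its class by mean ratio. It was followed by chr10:28875902-28875950, with 2.24 and 2.97, and chr10:28822991-28823061, only 2.0 kb from the 5′ end, with 2.56 and 2.19. The other two of the top 5 were chr10:28842623-28842641, with 2.07 and 2.06, and chr10:28848445-28848459, where 2.88 in the first library stood against 1.23 in the second. Above 1 in both libraries were 13 of the 45, or 28.9%, against 43.0% over the table. The lowest was chr10:28828537-28828556, with -0.84 and -1.64, and the widest was chr10:28874220-28874345, with 126 nt and ratios of 0.54 and 0.61.

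NDRG1 had no peak without ADAR2 as high as the strongest of WAC. Its highest peak found only without ADAR2, chr8:134267996-134268017, lay 42.0 kb from the 5′ end and had 1.66 and 1.18. It ranked 933 of 4763. A second peak, chr8:134268104-134268137 with 0.85 and 0.69, lay 86 nt from it toward the 5′ end. Near the 5′ end, chr8:134307348-134307366 had 1.24 and 0.79. The peak at chr8:134271433-134271453 had 1.14 and 0.77. The fifth, chr8:134276796-134276878, was the widest of its class in NDRG1, with 83 nt, and had 0.97 in the first library but 0.006 in the second. The lowest was chr8:134286521-134286558, at 23.5 kb, with -0.51 and -1.72. Only 1 of the 14 exceeded 1 in both libraries, or 7.14% against 10.2% over the table.

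Of the NDRG1 peaks found only with ADAR2, the highest were chr8:134291528-134291563, with 2.39 and 2.87, and chr8:134305871-134305882, with 2.07 and 2.38. The peaks at chr8:134277087-134277096, with 1.88 and 2.06, chr8:134258603-134258619, with 1.65 and 2.06, and chr8:134278077-134278113, with 1.65 and 1.87, came next. In all 5 the second library with ADAR2 was the higher one. Above 1 in both libraries were 6 of the 13, or 46.2%, near the 43.0% of that class over the table. The lowest, chr8:134278689-134278711, had -0.25 and -0.26, and the widest, chr8:134267879-134267928 with 50 nt, had 0.65 and 0.38.

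Many NDRG1 peaks without ADAR2 had ratios below 0. Of the 14 found only without ADAR2, 7 were below 0 in both libraries, 50% (26.8 to 73.2), while 3 of the 16 in WAC were, 18.8% (6.59 to 43). The share over all peaks of that class was 23.4%. Those 7 lay throughout the interval, at 0.6, 21.5, 23.5, 32.1, 41.2, 49.0 and 59.7 kb from the 5′ end. With only peaks above 0 in every library kept, 7 of 22 NDRG1 peaks, 31.8%, and 13 of 55 WAC peaks, 23.6%, were found only without ADAR2, against 5.00% over the table. With a ratio above 1 required in every library, these were 1 of 7 and 3 of 16, against 1.54% over the table. Among peaks found only with ADAR2, 5 of 45 in WAC and 1 of 13 in NDRG1 were below 0, against 7.40% over the table.

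The closeness of peaks found only without ADAR2 to peaks found with it was near that of the table. In WAC, 12 of 16 had such a peak within 1 kb, and in NDRG1 8 of 14, or 75% and 57.1%, against 63.2% over the table. Within 100 nt it was 18.8% and 21.4%, against 24% over the table. The median gap was 280.5 nt in WAC and 449 nt in NDRG1, against 497 nt. In the other direction 19 of the 45 WAC peaks and 10 of the 13 NDRG1 peaks found only with ADAR2 lay within 1 kb of a peak found without it, against 10.3%; the number of peaks without ADAR2, by which the genes were chosen, enters this share.

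The closest pair of opposite classes in NDRG1 was 3 nt apart. The peak at chr8:134271433-134271453, found only without ADAR2, had 1.14 and 0.77 in the SRSF9-only libraries, and its neighbour at chr8:134271457-134271470, found only with ADAR2, had 0.43 and 0.51. The table gives no value for the former with ADAR2 or for the latter without it. In WAC the closest such pair was 40 nt apart and contained the gene's highest peak with ADAR2: chr10:28879650-28879689, only without ADAR2, stood beside chr10:28879730-28879769, only with it. The former had 1.40 and 1.09 without ADAR2 and the latter 3.24 and 3.52 with it. A still smaller gap, 31 nt, separated the WAC peak chr10:28824489-28824524, only without ADAR2, from a shared peak.

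Peaks found only without ADAR2 were the wider exclusive class in both genes. Their median width was 40.5 nt (quartiles 28 and 60) in WAC, while peaks only with ADAR2 had a median of 24 nt (16 and 48). In NDRG1 the medians were 36 nt (22.25 and 58.5) and 26 nt (17 and 37). Over the table the order was the opposite, 32 nt without and 34 nt with ADAR2. Shared peaks had medians of 49 nt in WAC and 41 nt in NDRG1, against 51 nt in the table. The quartile ranges of the exclusive classes overlapped in both genes, and widths were not tested.

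The 9 shared peaks can be set side by side in all 4 libraries. Differences below are with minus without ADAR2 on the log2 scale, from limma over all 3645 shared regions of the table, which gave every region the same SE of 0.591 because its prior degrees of freedom were infinite. Both libraries with ADAR2 lay above both without it in 8 of the 9 (all 6 of NDRG1 and 2 of the 3 of WAC), against 49.9% of all shared regions. In the remaining peak, in WAC, both lay below, against 9.22%. The median difference was 1.17 in NDRG1 and 0.84 in WAC, against 0.62 over all shared regions. Centring (subtracting from each library its median over the shared regions) brought the median of all shared regions to 0.03 and these to 0.58 and 0.25. By limma with Benjamini-Hochberg adjustment at a threshold of 0.05, 18.5% of all shared regions were higher with ADAR2 and 2.41% were lower before centring. In counts these were 675 and 88 regions. After centring, 459 were higher and 396 lower, so the excess of higher regions depends on the scale of the libraries. For the 9 peaks only the difference and SE are given, because the genes were chosen on the same contrast. With the first or, in turn, the second SRSF9-only library left out, the median difference over all shared regions was 0.99 and 0.27. The prior degrees of freedom were 3.76 in those fits of 3 libraries. Each of them had a lone SRSF9-only library, so only the size of the difference is given. The calls above come from all 4 libraries, and those before centring from the same SE for every region. All 9 peaks kept the sign of their difference when a library was left out. That was fixed in advance, because their libraries did not overlap between conditions.

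The shared NDRG1 peak closest to the 5′ end had the largest difference of the 9. At chr8:134308700-134308717, 1.3 kb from the 5′ end and 18 nt wide, the SRSF9-only ratios were -0.08 and -1.24, and those with ADAR2 were 3.53 and 2.87. Both of the former were below 0, and the latter were the highest of any NDRG1 peak in the first library and equal to the highest in the second. The difference was 3.27 after centring and 3.86 ± 0.591 before it (the SE common to all shared regions, n = 2 libraries per condition). The latter was above that of 99.7% of all shared regions. The difference before centring ran from 3.28 to 4.44 when 1 library was left out. Around it, peaks found only without ADAR2 lay at 0.6 kb, with -0.12 and -1.06, and at 2.6 kb, with 1.24 and 0.79, and 1 found only with ADAR2 lay at 2.4 kb, with 1.07 and 2.06.

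At 43.2 kb from the 5′ end of NDRG1, chr8:134266786-134266844 had ratios of -0.93 and -0.30 in the SRSF9-only libraries and of 1.07 and 2.30 with ADAR2. The difference was 2.30 (1.68 to 2.91 with 1 library left out). Only 257 nt away, toward the 5′ end, chr8:134267102-134267150 had 0.92 and 0.38 in the SRSF9-only libraries against 0.94 and 1.42 with ADAR2. There the libraries of the conditions almost touched, and the difference of 0.53 turned to -0.06 after centring. The differences of these neighbouring peaks were thus 2.30 and 0.53, each with an SE of 0.591. Whether they differ from each other was not tested. At chr8:134290825-134290857 the SRSF9-only ratios of -0.19 and -1.35 stood against 0.07 and 1.23 with ADAR2, and the difference was 1.42.

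The other 2 shared NDRG1 peaks had low ratios above 0 without ADAR2. The peak at chr8:134269010-134269033 had 0.38 and 0.25 in the SRSF9-only libraries, 1.82 and 0.65 with ADAR2, and a difference of 0.92. The widest, chr8:134274292-134274375 with 84 nt, had 0.052 and 0.019 in the SRSF9-only libraries, and 1.47 and 0.06 with ADAR2. Its difference of 0.73 became 0.02 without the first library with ADAR2, so that library decides it. Of the 6 NDRG1 peaks, 3 had a mean below 0 without ADAR2 and above 0 with it, as did 1 of the 3 WAC peaks, against 22.8% of all shared regions.

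In WAC the shared peaks went in both directions. At chr10:28835047-28835073, 14.1 kb from the 5′ end, the SRSF9-only ratios of 2.66 and 1.60 stood against 0.98 and 0.25 with ADAR2. This was the one shared peak of the pair that was lower with ADAR2, and its libraries did not overlap between conditions. Its difference was -2.11 after centring and -1.52 ± 0.591 before it (the SE common to all shared regions, n = 2 per condition). The latter was below that of all but 2.4% of shared regions. The difference before centring ran from -2.04 to -0.99 with 1 library left out. The peak lay within the run from 10.7 to 14.3 kb in which no peak was found only with ADAR2. That run also held the strongest WAC peak without ADAR2.

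Toward the 3′ end of WAC the direction was the opposite. At chr10:28899691-28899741, 78.7 kb from the 5′ end, the SRSF9-only ratios were -0.66 and -0.30 and those with ADAR2 1.65 and 1.20. The difference was 1.91 (1.68 to 2.14 with 1 library left out, 1.32 after centring). The third, chr10:28824556-28824604 at 3.6 kb, had 0.24 and 0.26 in the SRSF9-only libraries, 1.39 and 0.80 with ADAR2, and a difference of 0.84, or 0.25 after centring.

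**Figure D4:**
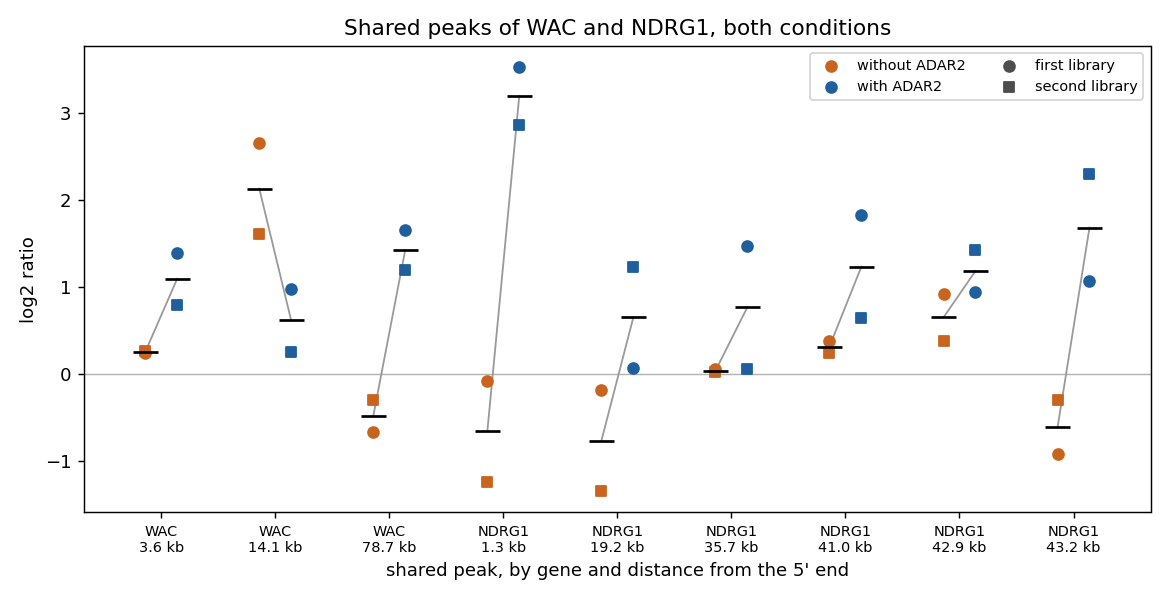
Log2 ratios of the 9 shared peaks in all 4 libraries, circles for the first and squares for the second library of a condition, with bars at the means. The WAC peak at 14.1 kb has a mean of 2.13 without ADAR2 and 0.61 with it, and the NDRG1 peak at 1.3 kb has -0.66 and 3.20.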

How the data were processed

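The series holds eCLIP libraries of HEK 293T cells, 2 with SRSF9 overexpression, 2 with SRSF9 and ADAR2 overexpression, and 1 input. The analysis used 1 peak table. Its values are log2 ratios deposited by the authors, with an unnamed denominator. A 0 in both columns of a condition marks an absent peak, and on that basis columns were assigned to conditions. Columns carry no replicate names, so libraries are called first and second in file order. Per the submitters' processing notes the build is hg19. Not given in the sources used here are the aligner, peak caller and thresholds. Depth per library is unknown.

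The genes and lists were chosen with earlier results of these data known. Positions are counted from 1. Named peaks are all shared ones, the top 5 by mean ratio, the lowest and widest of each class, and the closest opposite pair; other peaks and stretches were chosen after their values were seen. Shared rows with identical coordinates were averaged to 3645 regions and fitted with limma 3.58.1 (R 4.3.3), unblocked, and the code was tested on simulated data. No source says that libraries came from separate cultures, so tests measure the spread between libraries, which may be technical. Only peaks with the same sign in both libraries of a condition are held, which also bears on that spread and on the limma SE. Wilson intervals used scipy 1.17.1. Alternatives were other intervals, merging, ratio thresholds, centring and leaving out libraries.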

Additional observations from a re-analysis of the deposited data

How the results depend on the processing

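No paired analysis was possible because the columns carry no replicate numbers. Counting identical coordinates once and requiring peaks wholly inside the interval could not change the counts of peaks found only without ADAR2. Neither gene had repeated rows or a peak across a bound. Widening the interval by 10 kb took all peaks of WAC from 64 to 65 and left NDRG1 at 33, with these counts unchanged. Merging peaks of a class within 1 kb kept them within 1.5 times, at 13 (WAC) and 11 (NDRG1). Requiring ratios above 0 left 7 in NDRG1, and requiring ratios above 1 left 3 in WAC and 1 in NDRG1 (14.3% of its peaks). Within 100 nt, not 1 kb, of a peak with ADAR2 lay 18.8% (WAC) and 21.4% (NDRG1) of them, against 24% over the table. Centring each library on its median over the peaks of its condition turned the median of WAC peaks with ADAR2 from 0.93 to -0.18, and moved that of NDRG1 to 0.07 and those without ADAR2 to 0.14 (WAC) and -0.71 (NDRG1). It moved the share of peaks only with ADAR2 below 0 in both libraries to 42.2% (WAC) and 38.5% (NDRG1). Centring sets the median of each library to 0, so many peaks of the table fall below 0 by construction. The share over the table after centring was not computed, so these shares show no departure from it. Centring over the shared regions moved the median difference in shared WAC peaks to 0.25. With 1 library left out, the median of the peaks with ADAR2 was 0.80 to 0.86 in WAC and 1.07 to 1.23 in NDRG1. Without ADAR2 it was -0.11 to 0.02 in NDRG1, the sign turning without the second library. Of the 9 shared peaks, centring reversed 1, NDRG1 at 42.9 kb (-0.06). Left-out libraries reversed 0 of them. That was fixed in advance, because in none of these peaks did the libraries overlap between conditions. Over all shared regions, limma called 675 higher and 88 lower with ADAR2. Centring gave 459 and 396, and 77 and 5 were called among regions above 0 in every library. With 1 library left out, 0 to 199 were higher and 0 to 22 lower. A lone library of a condition was there assumed to vary like the other pair. The cause of these shifts was not tested. Unknown depth limits what a single ratio can show.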

Other observations

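Many ratios in WAC and NDRG1 recurred exactly. In the second library with ADAR2, 67 peaks had 39 distinct values, with 0.06 occurring 6 times and 0.645 occurring 5 times. In the first library with ADAR2 there were 42 distinct values, and 0.069 occurred 6 times. Without ADAR2 the 39 peaks had 30 distinct values in the first library and 36 in the second. In the second SRSF9-only library, 4 of the 19 WAC values and 7 of the 20 NDRG1 values had more than 3 decimals, and in the first 0 did.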
